A study of Homo sapiens with 27 samples.

Results

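The comparison set purified DNA that was treated with temozolomide (TMZ) outside cells against DNA of cells that received only the solvent. The members were all 3 libraries of TMZ-treated naked DNA and all 6 libraries of the 3x solvent controls, 9 of the 27 libraries of the series, chosen by their labels and not by any measured value. Only sites on chromosomes 1 to 22 and the mitochondrial chromosome M with a score of at least 30 were used, which left 28505461 sites in naked DNA and 12819047 in the solvent libraries, of 116119969 in the whole series.

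All DNA came from LN-229, an established human glioblastoma cell line. The naked DNA was treated with 1 mM TMZ, and replicates 1, 2 and 3 came from non-transfected WT cells, WT cells and MGMT-transfected cells, in that order. The solvent group held 3 libraries of WT cells, where WT names the transfection control, and 3 of MGMT-transfected cells. These cells received 1% DMSO 3 times, 4 h apart, and their DNA was taken 24 h after the first exposure. The labels give no solvent-treated naked DNA and no time for the treatment of the naked DNA, so the effect of TMZ and that of treating bare DNA cannot be told apart here. They call the solvent libraries biological replicates and do not say whether the 3 naked DNA treatments were separate experiments.

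TMZ breaks down in water to a methylating agent. Most of its methyl groups go to the N7 position of guanine and the N3 position of adenine, and a small part goes to the O6 position of guanine, giving O6-methylguanine. O6-methylguanine pairs with thymine in replication, which mismatch repair turns into lethal damage, and the protein MGMT removes the methyl group directly. In O6-MeG-seq, fragments with O6-methylguanine are pulled down with an antibody, and a polymerase that stops at the lesion marks its position. A library here is a list in which each marked position stands once, with its strand and base. Solvent libraries therefore show which positions the assay marks without the drug, and the naked DNA libraries show the positions marked after purified DNA was treated outside the cell.

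The promoter stretches below show where marked G lay in real sequence. They are the 250 bases before the RefSeq start of 3 genes, all on the forward strand of GRCh38.p14. AMER3 (chr2:130755290-130755539) and KIZ (chr20:21125832-21126081) were taken for their marked G in naked DNA, of which AMER3 held the most. LOC124904770 (chr19:54416852-54417101) held the most in the solvent libraries, and with 20 marked G in naked DNA it was tied with KIZ. A capital G is a marked G, and a capital C is a marked G on the opposite strand.
AMER3, marks of naked DNA: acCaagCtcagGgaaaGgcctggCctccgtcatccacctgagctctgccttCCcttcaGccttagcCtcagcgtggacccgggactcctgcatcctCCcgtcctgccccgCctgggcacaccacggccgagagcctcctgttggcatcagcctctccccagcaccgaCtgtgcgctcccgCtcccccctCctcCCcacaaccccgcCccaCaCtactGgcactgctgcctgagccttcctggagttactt
AMER3, marks of solvent libraries: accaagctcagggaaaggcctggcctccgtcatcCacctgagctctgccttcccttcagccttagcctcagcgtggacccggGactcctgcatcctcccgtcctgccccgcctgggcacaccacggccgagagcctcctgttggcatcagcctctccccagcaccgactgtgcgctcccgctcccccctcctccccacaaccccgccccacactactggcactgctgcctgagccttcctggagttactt
KIZ, marks of naked DNA: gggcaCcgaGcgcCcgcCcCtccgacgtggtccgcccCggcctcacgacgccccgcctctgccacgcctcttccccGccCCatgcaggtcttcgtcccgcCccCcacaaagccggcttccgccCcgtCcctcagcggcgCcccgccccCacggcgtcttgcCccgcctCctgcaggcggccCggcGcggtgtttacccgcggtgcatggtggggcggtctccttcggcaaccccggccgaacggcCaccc
LOC124904770, marks of naked DNA: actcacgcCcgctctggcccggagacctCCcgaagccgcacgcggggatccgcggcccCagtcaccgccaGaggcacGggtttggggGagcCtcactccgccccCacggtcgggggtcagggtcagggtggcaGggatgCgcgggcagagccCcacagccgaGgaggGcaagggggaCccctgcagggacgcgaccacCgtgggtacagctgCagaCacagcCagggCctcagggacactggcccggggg
LOC124904770, marks of solvent libraries: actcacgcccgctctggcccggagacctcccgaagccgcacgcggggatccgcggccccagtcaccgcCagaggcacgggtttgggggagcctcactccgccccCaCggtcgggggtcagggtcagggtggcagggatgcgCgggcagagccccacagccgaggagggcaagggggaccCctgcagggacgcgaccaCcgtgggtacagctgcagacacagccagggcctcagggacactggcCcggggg
In the AMER3 stretch, 21 of 166 G on either strand were marked in naked DNA (11, 4 and 6 in replicates 1, 2 and 3) and 2 in the solvent libraries. A purine (A or G) preceded 18 of those 21 marked G on their own strand, and 109 of all 166 G. The KIZ stretch had 20 of 194 G marked in naked DNA (11, 4 and 5) and 1 in the solvent libraries. There a purine preceded 13 of the 20 marked G and 103 of all 194. Of the 185 G of the LOC124904770 stretch, 20 were marked in naked DNA (6, 8 and 7, with shared positions counted once) and 7 in the solvent libraries. A purine preceded 12 of those 20 marked G and 111 of all 185. These stretches were picked for their marks, so their counts are a description. Over 33551 such windows, the median number of distinct marked G was 3 in naked DNA and 0 in the solvent libraries, and 11.9% and 78.8% of windows had none.

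The naked DNA libraries were several times larger. They held 12453833, 7513065 and 8538563 sites, and the solvent libraries between 1136191 and 3088974. Shares and ratios were therefore compared, not numbers of sites, and in each list a position counted once however many reads it had. The share of listed sites that reached a score of 30 was 82.7% to 85.9% in naked DNA and 68.5% to 84.3% in the solvent libraries, and WT solvent replicate 1 was lowest, as it was in number of sites. That library stood apart in clustering as well, and results that rest on it are given without it too. Some libraries shared positions beyond the others. WT and MGMT solvent replicates 1 had 39010 positions not at G in common, 30.9 times the share of the median pair of libraries, and WT and MGMT solvent replicates 3 reached 8.20 times. Naked DNA replicate 1 shared such positions with the 1x solvent libraries of replicate 1, at 62.6 and 65.2 times the median pair, but those 1x libraries are not among the 9. No naked DNA library and 3x solvent library exceeded 1.18 times.

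Guanine made up more than 3 times the share of marked sites in naked DNA that it did in solvent-treated cells. G held 70.9%, 68.2% and 67.8% of sites in the naked DNA replicates. In the solvent libraries it held 19% at the lowest, 19.5% at the median and 23.7% at the highest. The groups did not overlap, and WT and MGMT controls lay within the same range (23.7%, 19.6% and 19.3% against 22.1%, 19.4% and 19%). The means were 69.0% ± 1.67 (SD, n = 3) and 20.5% ± 1.93 (SD, n = 6), a ratio of 3.36. The 4 shares add up to the whole, so the other bases together must hold less where G holds more. T went from 32.9% ± 0.145 to 9.92% ± 1.1, C from 19.2% ± 1.01 to 4.63% ± 0.914 and A from 27.3% ± 1.11 to 16.5% ± 0.352. For each of the 4 bases the exact two-sided permutation test over the 84 arrangements of the 9 libraries gave p = 0.0119, the smallest it allows, and 0.0166 after Benjamini-Hochberg adjustment over the 53 measures tested. Of those 53 measures, 41 passed an adjusted p of 0.05 (77.4%).

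The promoter windows, whose sequence is known, gave the rate per available base. They held 5170771 G on either strand. In naked DNA 9654, 6556 and 7451 G were marked per 1000000, and in the solvent libraries between 169.6 and 428.6. The other bases were also marked at higher rates in naked DNA, whose lists are larger. Per 1000000 A, 1227 to 1909 were marked there and 138.7 to 412.6 in the solvent libraries. For T the ranges were 664 to 797.6 and 170.9 to 490, and for C 522.2 to 739.9 and 159.7 to 456.2. Relative to the average base of the same library, G was marked at 2.78, 2.67 and 2.65 in naked DNA. In solvent libraries that relative rate ran from 0.918 to 1.21, so G was marked there about as often as any base. The rate of A was 0.519 ± 0.0276 in naked DNA and 0.930 ± 0.0630 in solvent libraries. T had 0.256 ± 0.0364 against 1.07 ± 0.0554, and C 0.226 ± 0.0652 against 0.985 ± 0.0454. All 4 differences had an exact permutation p of 0.0119. A was thus the most often marked of the 3 other bases in naked DNA, whereas in the solvent libraries the relative rates of A, C and T lay close together.

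**Figure D1:**
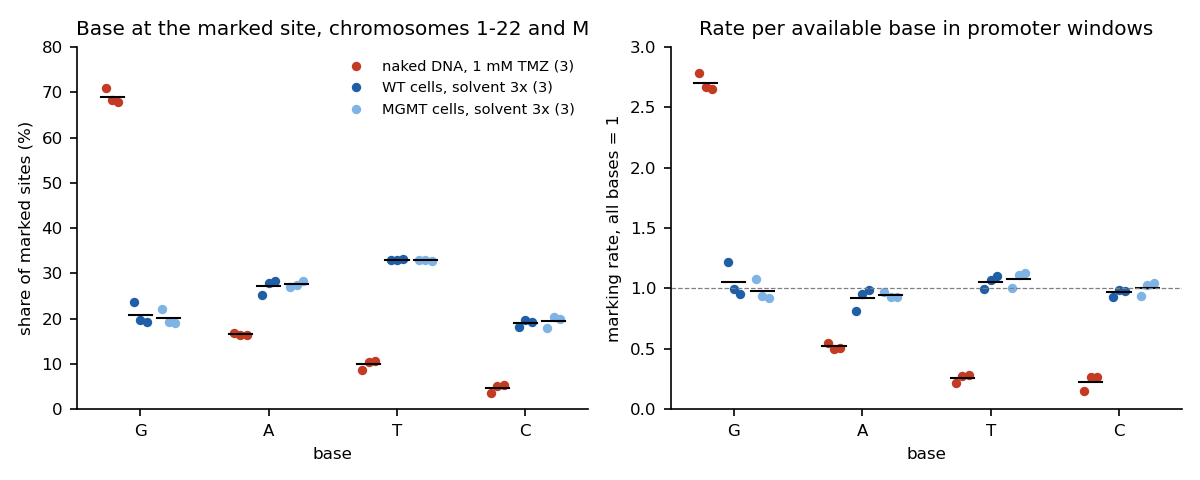
Share of marked sites at each base (left, percent) and marking rate per available base in promoter windows relative to all bases of the library (right, average base = 1), with 1 point per library and a line at each group mean. The naked DNA libraries lie at 67.8% to 70.9% G and the solvent libraries at 19% to 23.7%, and the solvent points of all 4 bases lie near a rate of 1.

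The sites that were not at G also had another makeup. A held 58.0%, 51.2% and 50.6% of them in naked DNA and 33.1% to 34.9% in the solvent libraries. C held 14.8% ± 2.21 against 24.2% ± 0.803, and T 31.9% ± 1.90 against 41.4% ± 1.05. All 3 differences had an exact permutation p of 0.0119 (adjusted 0.0166). Naked DNA replicate 1, the largest list, had the most A and the fewest C and T among these sites.

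Marked G in naked DNA followed a purine far more often than marked G in solvent-treated cells. A neighbour was read wherever its position was marked in 1 of the 18 libraries outside the comparison. That covered 3.02% of positions and weights the shares to positions that those libraries mark. The 18 are the libraries of TMZ-treated cells and the 1x solvent controls. Among the latter are those that shared positions with naked replicate 1. By that reading a purine came before 85.5%, 87.9% and 88.3% of marked G in naked DNA. The solvent libraries had 61.8% at the lowest, 62.7% at the median and 67.8% at the highest, so the groups did not overlap. The means were 87.2% ± 1.52 and 63.4% ± 2.22 (exact permutation p = 0.0119, adjusted 0.0166). The gain was mainly at G, which preceded 56.7% ± 0.900 against 35.3% ± 2.01, and less at A, with 30.5% against 28.1%. C preceded 2.41% ± 0.30 of marked G in naked DNA and 8.42% ± 0.826 in solvent libraries, and T 10.4% ± 1.22 and 28.2% ± 1.64. After the marked G the bases shifted less. C followed 24.8% ± 0.577 against 20.9% ± 1.24 and G 50.5% against 46.7%, while A (11.4% against 15.1%) and T (13.2% against 17.3%) followed less often (each exact permutation p = 0.0119). With neighbours read from the 1x solvent libraries alone, the difference of G after marked G was 0.20 percentage points, with an adjusted exact permutation p of 0.778. Over positions marked in no other library that difference was 3.30 percentage points, with an adjusted p of 0.0664.

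In promoter windows every G could be counted by its neighbours, with no reference library. Relative to all G of the library, G after G was marked at 1.48 ± 0.0336 in naked DNA and 0.921 ± 0.0455 in solvent libraries. G after A was at 1.20 against 1.04. G after C was at 0.514 against 0.994, and G after T at 0.486 against 1.08. By the base that follows the marked G, C stood at 0.902 against 0.800, with overlapping libraries (exact permutation p = 0.0833, adjusted 0.103). A following G stood at 1.22 against 1.15, also with overlap (adjusted exact permutation p = 0.0476). A following A had 0.829 against 0.924 (0.0212) and T 0.962 against 1.16 (0.0401). Of the 16 contexts of a G with both neighbours, 13 differed (81.2%), 5 higher and 8 lower in naked DNA (exact permutation test, adjusted p over the 16 at or below 0.05). The 5 that were higher were the 4 contexts with G before the marked G, and AGG. The 8 that were lower were all the contexts with C or T before it.

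The order of contexts in naked DNA ran from GGG at 1.72 ± 0.0579 through GGT at 1.57 ± 0.0377 and AGG at 1.47 ± 0.0323 down to TGC at 0.411 ± 0.0556, TGA at 0.351 ± 0.0354 and CGA at 0.350 ± 0.0331. The solvent libraries had 1.05 ± 0.0481, 1.09 ± 0.208, 1.20 ± 0.0756, 0.904 ± 0.0503, 0.949 ± 0.109 and 0.891 ± 0.173 at the same contexts. TGT had the largest fall, from 1.27 ± 0.242 in solvent libraries to 0.413 ± 0.0345, a ratio of 0.327. GGC had the largest rise, from 0.729 ± 0.128 to 1.39 ± 0.0588, a ratio of 1.91. AGT (1.16 against 1.15) and AGA (0.969 against 0.982) overlapped between groups, and AGC at 1.12 against 0.840 missed the threshold (adjusted exact permutation p = 0.0544). Against WT controls alone and against MGMT controls alone, 15 of the 16 contexts kept their direction. A solvent library had only between 877 and 2216 marked G in these windows, which the naked libraries exceeded with 33900 to 49918, so the solvent values carry the larger counting error.

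**Figure D2:**
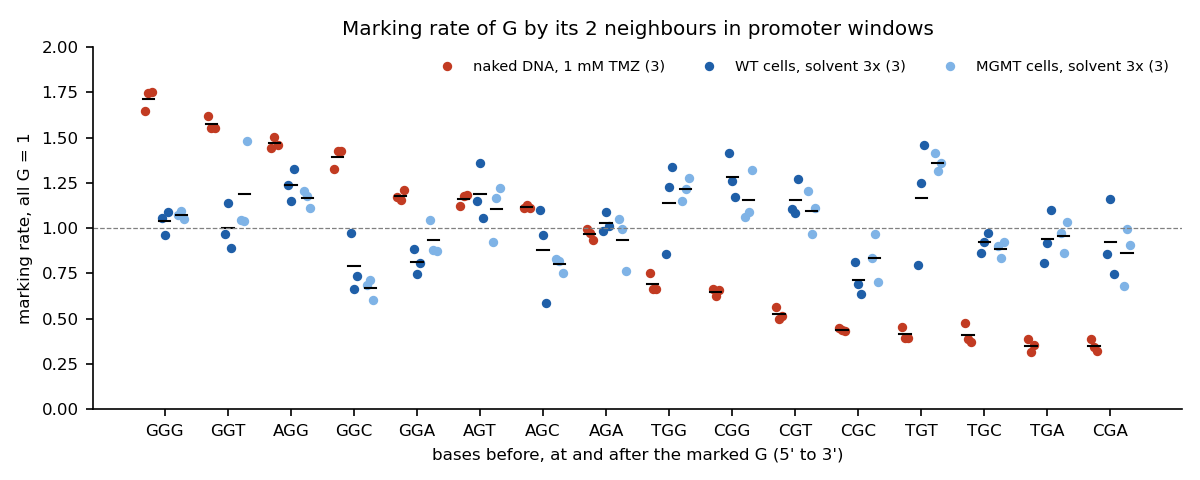
Marking rate of G in promoter windows for the 16 combinations of neighbours (horizontal axis, ordered by the naked DNA mean) relative to all G of the same library (vertical axis, all G = 1), with 1 point per library and a line at each group mean. Naked DNA falls from 1.72 at GGG to 0.350 at CGA, with the mean of every context that has C or T before the G under 0.70, while most solvent points lie between 0.6 and 1.5.

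Both G of a CG step were seldom marked in the same naked DNA library. A CG step carries a G on each strand, and pairs with both G marked were counted over the number of pairs at 50 to 100 kb. In naked DNA that ratio was 0.0484 ± 0.00748 for CG steps, from 131 to 470 pairs per library, and 1.19 ± 0.0441 for GC steps, from 3460 to 9457 pairs. In solvent libraries it was 0.425 ± 0.118 for CG steps, from only 3 to 23 pairs, and 1.03 ± 0.162 for GC steps. The number of CG and GC steps in the genome was not part of this ratio, and no test was made of it.

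Marks at A, C and T in naked DNA lay next to a G more often than such bases do. In promoter windows 50.6% of all A had a G on at least 1 side. Marked A had 71.7%, 73.3% and 73.7% in naked DNA and 52.3% to 58.2% in solvent libraries. Marked T had 62.0% ± 2.61 against 47.8% ± 1.46, where 43.7% of all T lay beside a G. Marked C had 61.7% ± 0.924 against 52.7% ± 2.31, where 41.5% of all C did. The groups did not overlap for any of these 3 bases (exact permutation p = 0.0119 each), and in solvent libraries the shares also stood above those of all such bases.

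The side of the neighbouring G differed by base. For A the G came after the mark. Marked A was followed by G at 1.77 ± 0.0387 times the frequency around any A in naked DNA and at 1.24 ± 0.0716 in solvent libraries, while G before it had 1.24 ± 0.0305 and 0.952 ± 0.0567. For T the G came before the mark, at 1.60 ± 0.204 against 0.972 ± 0.0633, and naked replicate 1 was highest with 1.83. G after a marked T had 1.38 ± 0.0201 against 1.21 ± 0.0187. Marked C was followed by G at 2.0 ± 0.151 in naked DNA and already at 1.76 ± 0.115 in solvent libraries, and preceded by G at 1.34 ± 0.00262 against 1.1 ± 0.0455. On the side with the larger ratio, G in naked DNA was less frequent 2 bases away, at 1.24 after A, 1.34 before T and 1.25 after C.

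The genome-wide reading through other libraries was made for both sides of each base. G followed 66.0%, 70.2% and 68.9% of marked A in naked DNA and 41.6% to 45.3% in solvent libraries, and it preceded 37.5% to 39.3% against 24.6% to 25.8%. G preceded 47.6%, 43.5% and 42.7% of marked T against 21.9% to 22.4%, and it followed 38.8% to 40.5% against 29.2% to 32.9%. For C the groups differed before the mark, where G stood at 43.4% to 44.0% of marked C against 29.6% to 31.6%. These 5 differences had an exact permutation p of 0.0119 (adjusted 0.0166). After marked C, G stood at 18.8% ± 2.19 in naked DNA and 18.8% ± 1.02 in solvent libraries, with an exact permutation p of 0.988.

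**Figure D3:**
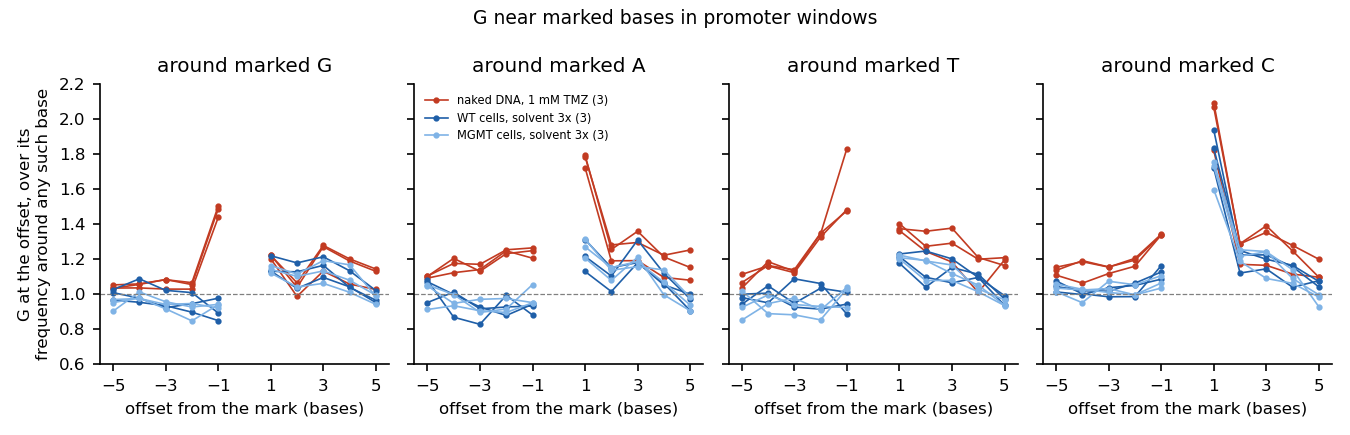
Frequency of G at 1 to 5 bases before (negative) and after (positive) marked G, A, T and C in promoter windows, divided by the frequency of G at the same offset around all such bases (vertical axis), with 1 line per library. Naked DNA rises to 1.48 before marked G, 1.77 after marked A, 1.60 before marked T and 2.0 after marked C, and the solvent means reach 1.76 after marked C and 1.24 after marked A.

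Pairs of a marked G and a mark at another base in neighbouring positions were counted over such pairs at 50 to 100 kb. A marked G lay 1 base after a marked C at a ratio of 0.492 ± 0.0183 in naked DNA and 2.28 ± 0.291 in solvent libraries. After a marked T it was 1.49 ± 0.161 against 5.22 ± 1.76 (both exact permutation p = 0.0119, adjusted 0.0166), and the adjusted p after T was 0.0923 without naked replicate 1, 0.0809 over positions marked in no other library and 0.0742 against all 12 solvent controls. On the other side the groups overlapped for both bases. Before a marked C the ratio was 2.64 to 2.81 in naked DNA and 2.43 to 6.84 in solvent libraries. Before a marked T it was 3.42, 3.06 and 2.97 against 2.44 to 10.1. For A it was the other way round, with no overlap before the mark (1.84 to 1.92 against 2.29 to 9.11) and overlap after it (5.25 ± 0.356 against 5.70 ± 2.47). WT solvent replicate 1 held the highest solvent value in these ratios except after C. Without it the mean difference after A turned from -0.448 to 0.488, with an adjusted exact permutation p of 0.464, and the one before T from -1.01 to 0.162 (0.705). Before C it moved from -0.974 to -0.348 (0.414). Before A the adjusted exact permutation p was 0.294 over all 9 libraries, and without that library the difference was -0.935 with an adjusted p of 0.0430.

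Between 11 and 1000 bp, marked sites of the same strand were more clustered in solvent-treated cells than in naked DNA, relative to the density of each list. Clustering was taken as the number of pairs per base at a given distance over that at 50 to 100 kb on the same strand. For G at 11 to 100 bp it was 1.40, 1.39 and 1.38 in naked DNA and 1.73 at the lowest, 1.90 at the median and 2.26 at the highest in solvent libraries (exact permutation p = 0.0119, adjusted 0.0166). The groups did not overlap. At 100 to 1000 bp the means were 1.11 ± 0.0188 and 1.29 ± 0.0898 (exact permutation p = 0.0357, adjusted 0.0462), and without naked replicate 1 the adjusted p was 0.0923. At 2 to 10 kb the ratios were 1.03 and 1.03, with overlapping libraries. For G pairs on opposite strands at 11 to 100 bp the libraries overlapped, at 1.13 ± 0.0416 against 1.19 ± 0.0514 (exact permutation p = 0.143, adjusted 0.176). Opposite-strand G pairs at 100 to 1000 bp had 1.06 ± 0.0182 against 1.15 ± 0.0272 (exact permutation p = 0.0119, adjusted 0.0166). With no minimum score that last difference had an adjusted exact permutation p of 0.0721. After random thinning of each library to 262637 G sites and 867203 other sites, G at 11 to 100 bp stood at 1.39 to 1.45 in naked DNA and 1.73 to 2.25 in solvent libraries (adjusted exact permutation p = 0.0166). Thinning makes lists equal in size, and whether other properties that go with list size bear on the ratio was not tested.

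Within 10 bp the G ratio was 1.97, 1.95 and 1.93 in naked DNA. The solvent libraries had 2.42 to 5.65, and WT solvent replicate 1 alone held the highest value. The mean difference had an exact permutation p of 0.0714 (adjusted 0.0901). Without WT solvent replicate 1 the naked mean was lower by 0.938 with an adjusted exact permutation p of 0.0430. At exactly 1 bp, that is for G in neighbouring positions of the same strand, naked DNA had 3.75, 3.83 and 3.73 and the solvent libraries 3.21 to 8.72, from 59 to 367 pairs each. WT solvent replicate 1 held that highest value, and the other 5 reached 5.58. Between opposite strands, G pairs within 10 bp had 0.945 ± 0.0618 in naked DNA and 0.995 ± 0.0645 in solvent libraries, which overlapped.

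Sites not at G showed the wider gap. At 11 to 100 bp their ratio was 1.32 ± 0.0780 in naked DNA and 2.03 ± 0.169 in solvent libraries. At 100 to 1000 bp it was 1.1, 1.08 and 1.07 against 1.26 to 1.46 (both exact permutation p = 0.0119, adjusted 0.0166). With no minimum score these differences had an adjusted p of 0.107 and 0.118. Within 10 bp naked DNA had 1.74, 1.5 and 1.49, and the solvent libraries had 2.63 to 3.94 apart from WT solvent replicate 1 at 13.1. That library reached 54.1 for pairs exactly 1 bp apart. The groups did not overlap, but over all 9 libraries the difference had an exact permutation p of 0.238 (adjusted 0.287). Without WT solvent replicate 1 the difference was -1.69, with an adjusted exact permutation p of 0.0243.

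**Figure D4:**
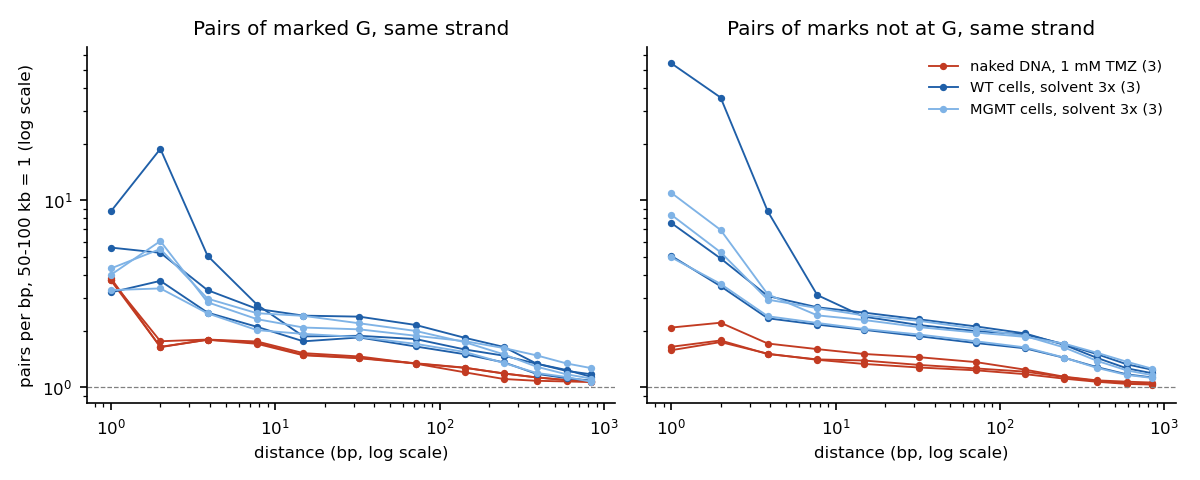
Pairs of marked sites per base on the same strand by distance (horizontal axis, bp, log scale), divided by the number per base at 50 to 100 kb (vertical axis, log scale), for G (left) and for the other bases (right), with 1 line per library. The naked DNA lines are the lowest from 11 to 700 bp in both panels, and WT solvent replicate 1 stands above all others at 1 bp, with 54.1 for sites not at G.

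Compared with solvent-treated cells, marks in naked DNA lay more in regions whose 1x solvent marks were rich in G and C, at G and at the other bases. Over 1 Mb bins of the autosomes, the variance of G density beyond counting error, divided by the squared mean, was 0.151, 0.171 and 0.171 in naked DNA. In the solvent libraries it was 0.0824 to 0.0938, with a median of 0.0912 (exact permutation p = 0.0119, adjusted 0.0166). For sites not at G the values were 0.104 ± 0.00886 and 0.0773 ± 0.00144 (same p). With no minimum score both differences reversed, to -0.0677 for G and -0.120 for sites not at G, and neither passed. Bins were then put in 5 classes by the G+C share of the marks of the 1x solvent libraries, not by genome sequence. Among those libraries are the ones that shared positions with naked replicate 1, and whether that sharing bears on the classes was not tested. In the lowest class the G density relative to the mean bin was 0.696 ± 0.0172 in naked DNA and 0.855 ± 0.0212 in solvent libraries, and in the highest 1.42 ± 0.0358 and 1.14 ± 0.0388. Sites not at G had 0.821 ± 0.0307 against 0.981 ± 0.0178 in the lowest class and 1.21 ± 0.0476 against 0.969 ± 0.0294 in the highest. Every class differed for both kinds of site (exact permutation p = 0.0119). Those class means share libraries and bins between G and the other bases.

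Of 2751 bins, 924 differed in G sites in limma with an adjusted p at or below 0.05 (33.6%), 513 higher (18.6%) and 411 lower (14.9%) in naked DNA. For sites not at G, 1200 of 2750 bins differed (43.6%), 616 higher and 584 lower. When G was set against the other marks of the same bin and library, 1 of 2750 bins passed (0.0364%), and 207 had an unadjusted p under 0.05. The fold changes of that last comparison were narrow, with the 5th and 95th percentiles at -0.12 and 0.12 on the log2 scale, against -0.34 and 0.49 for G alone. Across 2744 bins, the Pearson correlation of the fold change with the G+C measure was 0.863 for G, 0.863 for sites not at G and 0.198 for G relative to the others. The bins share the same 9 libraries. The G+C measure comes from marked sites, in part of libraries that share positions with naked replicate 1, so these values are descriptions. The count of G bins fell to 385 without naked replicate 2, to 503 without naked replicate 1 and to 600 without naked replicate 3, each of 2741 bins. It was 565 against WT controls alone and 1091 against MGMT controls alone, each of 2751. With no minimum score limma called 0 G bins (337 at an unadjusted p under 0.05) and 23 bins for G relative to the other marks. The count for sites not at G fell to 738 without naked replicate 2 and to 745 after thinning every list to the smallest.

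The bins with the largest rise at G lay at or near the ends of chromosomes 16 and 9. In chr16:1-1000000, which 55 protein-coding genes overlap, naked DNA held 4798, 3131 and 2978 G sites and the solvent libraries 67 to 174. Scaled to library size the rise was 1.07 ± 0.0899 on the log2 scale (SE, limma adjusted p = 6.63e-05). The bin chr9:136000001-137000000, with 37 protein-coding genes, had 1.04 ± 0.0969 (limma adjusted p = 9.05e-05), and chr16:1000001-2000000, with 47, had 0.99 ± 0.150 (limma adjusted p = 0.000834). The median bin holds 4 protein-coding gene starts, a narrower count than that of genes overlapping a bin. The same 3 bins had the largest rises at sites not at G, with 1.00, 0.94 and 1.03.

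The largest falls at G lay in bins of chromosomes 21 and 10. The bin chr21:8000001-9000000, on the short arm, has no protein-coding gene in the table and fell by 1.45 ± 0.137 (log2, SE, limma adjusted p = 9.05e-05). It was also the bin that passed for G relative to the other bases, at -0.77 ± 0.150 (limma adjusted p = 0.00588), although the libraries overlapped in that ratio. In the relative comparison limma called 0 bins against WT controls alone, against MGMT controls alone, after thinning, with limma-trend, and without naked replicate 1, WT solvent replicate 3 or MGMT solvent replicate 3. The bin chr21:7000001-8000000, with 5 protein-coding genes, fell by 1.09 ± 0.287 (limma adjusted p = 0.0142), and chr10:41000001-42000000, with none, fell by 0.92 ± 0.153 (limma adjusted p = 0.00132). These bins are thinly covered: solvent libraries had 8 to 56 G sites in them.

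**Figure D5:**
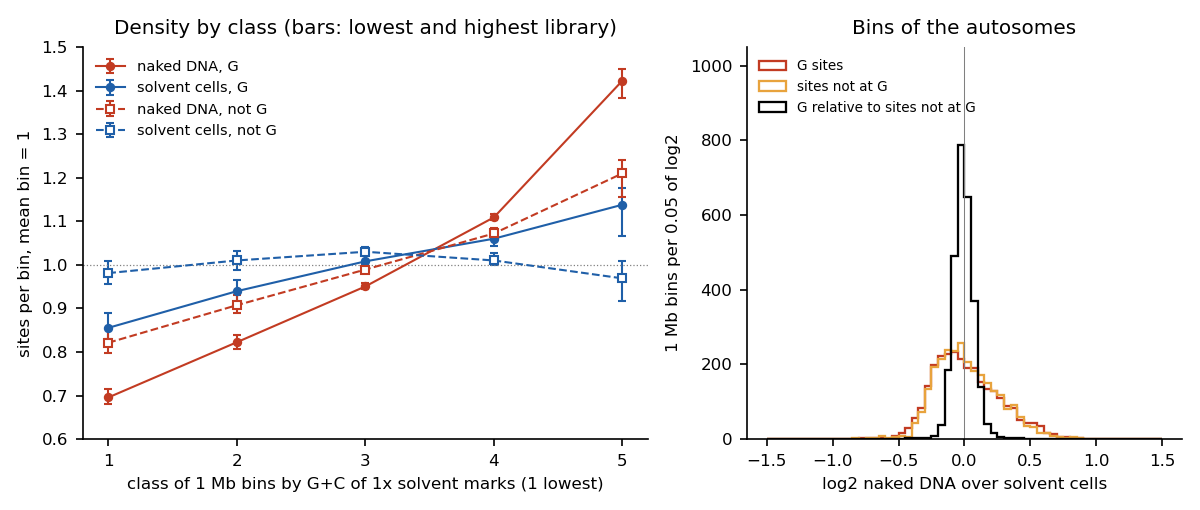
Density of marked sites by class of 1 Mb bins (left, mean bin = 1, points are group means and bars reach from the lowest to the highest library) and distribution of the log2 fold change of naked DNA over solvent libraries across bins (right, bins per 0.05 of log2). Naked DNA rises from 0.696 to 1.42 at G and from 0.821 to 1.21 at the other bases, and the distribution for G relative to the other bases is much narrower than those of G and of the other bases.

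By autosome, 8 of 22 differed in their share of G sites (36.4%; exact permutation p = 0.0119 each, adjusted 0.0327 over the 22). Chromosomes 22 and 17 were the highest, at 0.34 and 0.24 on the log2 scale, and chromosomes 16, 19 and 11 rose as well. Chromosomes 4 and 13 were lowest, at -0.16 and -0.12, and chromosome 6 fell by 0.08. Chromosome 20 stood at 0.23 with overlapping libraries (exact permutation p = 0.119, adjusted 0.238). Naked replicate 3, from MGMT cells, had 212063 G sites there in a list of 8538563. Replicate 2, from WT cells, had 231955 in the smaller list of 7513065. Likewise MGMT solvent replicate 2 had 19481 in 3088974 sites and WT solvent replicate 2 had 21651 in 2731429. Because both groups pool the lines, this overlap cannot decide whether naked DNA differs within a line. The same number of autosomes, 8 of 22, differed for sites not at G (36.4%). The 2 groups hold WT and MGMT cells in different proportions. Neither this test nor the limma fits of G sites and of other sites had a term for the cell line. How far the lines themselves differ in these shares was not tested.

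Promoters and genes held more of the marks of naked DNA. Promoter windows contained 0.569%, 0.666% and 0.671% of G sites in naked DNA and 0.328% to 0.405% in solvent libraries. For sites not at G the shares were 0.426% ± 0.0537 and 0.224% ± 0.0122. Protein-coding genes held 48.8% ± 0.374 of G sites against 46.4% ± 0.284, and 47.6% ± 0.507 against 45.3% ± 0.187 of the other sites (each exact permutation p = 0.0119, adjusted 0.0166). With no minimum score the difference of the other sites in genes had an adjusted p of 0.0721. The forward strand had 50.1% of G sites in each group.

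Within promoter windows the trend with base composition ran opposite ways. The marking rate per G, relative to all G in promoters, was 0.654 ± 0.0460 in naked DNA in the fifth of windows poorest in G and C, and 1.20 ± 0.105 in solvent libraries. In the windows richest in G and C it was 1.08 ± 0.107 against 0.777 ± 0.0864. The rate per base of sites not at G had 0.635 ± 0.0949 against 1.12 ± 0.0545 in the poorest class and 1.21 ± 0.217 against 0.776 ± 0.0506 in the richest. These 4 differences had an exact permutation p of 0.0119 (adjusted 0.0170). In the middle class the G rates were equal within their spread, at 1.06 and 1.06. The naked means were higher in class 4 than in the richest class, at 1.14 for G and 1.26 for sites not at G. In the richest class naked replicate 1 stood at 0.960 for G and 0.959 for sites not at G. Replicates 2 and 3 stood at 1.15 and 1.14 for G and at 1.34 and 1.33 for the other sites.

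Mitochondrial DNA held a smaller part of the marks in naked DNA. Chromosome M had 0.0457%, 0.0845% and 0.0751% of G sites in the naked replicates and 0.374% at the lowest, 0.528% at the median and 0.692% at the highest in solvent libraries. The means were 0.0684% ± 0.0203 and 0.532% ± 0.139 (exact permutation p = 0.0119, adjusted 0.0166). This share cannot be read as a rate, because a position counts once and chromosome M is small. Of the 7349 G whose base was known on either strand of M, naked DNA had marked 4030, 4333 and 4347 (54.8% to 59.2%), and solvent libraries 1594 to 3064 (21.7% to 41.7%). Of the 25775 other bases, 23% to 30.7% were listed in naked DNA and 22.6% to 38.1% in solvent libraries. When only positions marked in no other library were kept, the mitochondrial share of G sites no longer passed the threshold. Every library listed at least 21.7% of the G of M, so this filter keeps few positions there and cannot decide on either kind of site. Chromosome M also had a smaller share of the sites not at G, with 0.164%, 0.308% and 0.288% in naked DNA and 0.327% to 0.682% in solvent libraries (exact permutation p = 0.0238, adjusted 0.0316). That difference missed the threshold without naked replicate 1 (adjusted p = 0.132), without WT solvent replicate 3 (0.0693) or without MGMT solvent replicate 3 (0.0901), and with a minimum score of 40 (0.0901) or none (0.100) or over positions marked in no other library (0.524).

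On chromosome M, too, G took a larger share of marks in naked DNA, with 40.4%, 37.1% and 35.5% of sites against 21.5% to 24.0% in solvent libraries (exact permutation p = 0.0119, adjusted 0.0166). By strand, 55.2% of forward and 54.7% of reverse G were listed in naked replicate 1, 55.1% and 60.6% in replicate 2, and 55.9% and 60.5% in replicate 3. Of the solvent libraries, WT replicate 2 (30.4% forward, 29.1% reverse) and MGMT replicates 2 (33.6% and 29.1%) and 3 (24.1% and 20.7%) had the higher percentage at forward G. The other 3 had it at reverse G, and MGMT replicate 1, the largest solvent list at M, had 40.9% and 42.1%.

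The comparison could also be made between libraries that shared positions, naked DNA replicate 1 with the WT and MGMT 1x solvent libraries of replicate 1. G held 70.9% of sites in the naked library and 27.8% and 43.7% in those 1x libraries. A, C and T were all lower in the naked library than in both of them, as were pairs of G within 10 bp (1.97 against 7.01 and 3.06). The spread of G density was 0.151 against 0.131 and 0.169, so the naked library lay between them. It also lay between them in the share of G sites in protein-coding genes (48.4% against 47.9% and 48.8%) and in promoter windows (0.569% against 0.490% and 0.608%). With 1 naked library there is no test, and the 1x libraries that share positions with it had more G than any 3x solvent library.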

How the data were processed

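O6-MeG-seq lists of LN-229 DNA were compared: 3 libraries of naked DNA with TMZ and 6 of cells with solvent, grouped by their labels. The authors deposited, for each library, 1 line per marked position with chromosome, position, strand, base and a score. The deposited score runs from 0 to 42 and has no stated meaning. It was not taken as a number of reads, so no count of reads was used. No combination of position and strand occurred again within a list. Per the submitters' processing notes the build is GRCh38 (hg38), and FastQC 0.11.9, Trimmomatic 0.38 and 0.39, cutadapt, Bowtie2 2.3.5.1, GATK 4.2.0.0, SAMtools 1.12 and bedtools 2.29.2 were named, with no role given. Duplicate handling is not given in the sources used here.

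Sites with a score of at least 30 on chromosomes 1 to 22 and M were kept. Positions were taken as counted from 0: at 206748 of 206748 sites in RefSeq promoter windows (GRCh38.p14, 33725 windows on these chromosomes, 250 bases before to 50 after the start) the listed base equalled the sequence, against 37.7% and 37.6% when moved by 1 base. No genome sequence was used otherwise, and chromosome 8 has no window. Single values were compared between libraries with exact two-sided permutation tests and Benjamini-Hochberg adjustment over 53 measures, of which 18 were in the written design and 35 were added; contexts, promoter values, autosomes and classes were each adjusted as their own family. Sites per 1 Mb bin (bins where 3 or more libraries had 10 or more sites) were compared with limma 3.58.1 (voom) in R 4.3.3, and the ratio of G to other sites with the library as a term. Other values were computed in Python 3.11.15 with numpy 2.4.6. Tests were also run on simulated data, whose results are not given here and back no value above. Shares over lists of this size carry little counting error, and replicate SDs are given. With 9 libraries the permutation test cannot go below 0.0119, and p-values measure the spread between these libraries only.

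The members, set by their labels, and the contexts and bins were chosen with earlier results of these data known. No pattern already known is independent support. The text names all 4 bases, the 3 highest and 3 lowest contexts, the 2 highest and 2 lowest autosomes, up to 3 bins each way with the largest fold change whose libraries do not overlap, and the promoters with the most marked G. TGT, GGC, the contexts that missed the threshold, the other autosomes past it and the bin that passed relative to other bases were named after their values were seen. Replicate numbers were checked for pairing through the deviations of libraries from their group means. Same-numbered naked and WT solvent libraries correlated at -0.166 to 0.0348 over G bins and at -0.0478 to 0.048 over bins of sites not at G. Naked and MGMT solvent libraries had 0.0718 to 0.175 and 0.00805 to 0.297, all above 0. WT and MGMT solvent libraries had -0.0249 to 0.0704 and 0.0243 to 0.112. The numbers were not taken to pair the libraries. The exact tests counted each solvent library as separate, although WT and MGMT solvent replicates 1, and likewise replicates 3, shared positions. Alternatives were the score minimum, positions marked elsewhere, the control group, the neighbour reference, bin size, filter and normalization, thinning, and each library left out.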

Additional observations from a re-analysis of the deposited data

Results flagged for a closer look

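Among the 53 measures, 10 had a solvent library far from the other 5. Chance alone marks about 1 in 20 groups this way, and the measures are related, so these are not 10 separate facts. In 9 of them the library was WT solvent replicate 1, which of the 9 libraries had the fewest sites with a score of at least 30 and the smallest share that reached that score (68.5%).

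Its pairs of G within 10 bp stood at 5.65 times the level at 50 to 100 kb, where the other solvent libraries had 2.42 to 3.38. Its pairs of sites not at G within 10 bp stood at 13.1, against 2.63 to 3.94. A marked G lay 1 base after a marked A at 10.4 (others 3.80 to 5.95) and 1 base before a marked A at 9.11 (others 2.29 to 3.24). A marked G lay 1 base before a marked C at 6.84 (others 2.43 to 3.88) and before a marked T at 10.1 (others 2.44 to 3.69). G came before 39.3% of its marked G (others 33.9% to 35.0%), a purine before 67.8% (others 61.8% to 63.1%) and T before 25.1% (others 28.2% to 29.7%). In the 3 neighbour shares it lay toward naked DNA, and its 6 pair ratios were above those of every other library of the 9. The remaining case was MGMT solvent replicate 1, whose spread of G density over 1 Mb bins was 0.0824, against 0.0899 to 0.0938 in the other solvent libraries.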

How the results depend on the processing

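Under a minimum score of 40 or over positions marked in no other library, the base shares and the purine share kept their direction and side of the threshold. Against all 12 solvent controls the base shares kept theirs. The purine share was set against those 12 only with neighbours read through the libraries of TMZ-treated cells, an unplanned alternative. It kept its direction and side of the threshold there. Against WT or MGMT controls alone the exact test cannot go below 0.1, so only directions can be compared: 53 and 50 of the 53 measures kept theirs. With no minimum score the spread of G density reversed (-0.0677, no longer past the threshold), as did that of sites not at G (-0.120), G pairs within 10 bp passed (-7.83), pairs of sites not at G at 100 to 1000 bp did not (-2.01), 8 further measures lost their call (adjusted exact permutation p 0.0721 to 0.151), and limma called 0 G bins (337 at an unadjusted p under 0.05) and 23 bins for G relative to other sites. The cause was not tested. Without positions marked elsewhere the mitochondrial share of G sites differed by -2.86e-05 and no longer passed, nor did the mitochondrial share of sites not at G, pairs of sites not at G at 2 to 10 kb (adjusted exact permutation p 0.0512), G after marked G and marked G after marked T. That filter keeps few positions of chromosome M, so it cannot decide on the mitochondrial shares. After thinning G sites and other sites to the library with the fewest, an alternative chosen after seeing the data, the 20 pair ratios kept their side of the threshold except G pairs on opposite strands at 11 to 100 bp, which passed.

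Counts of G bins were 565 of 2751 against WT controls, 535 of 2728 after thinning and 1556 of 5449 with 500 kb bins. For sites not at G they were 745 of 2743 after thinning and 2033 of 5447 with 500 kb bins. For G relative to other sites limma called 5 of 2777 without the filter and 3 of 5446 with 500 kb bins. It called 0 with limma-trend (54 at an unadjusted p under 0.05), after thinning (153), against WT controls (180) and against MGMT controls (213). Thinning and smaller bins change the number of sites per bin.

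Between naked replicate 1 and the 1x solvent libraries of replicate 1, which share positions, the differences were 35.1 for G, -6.69 for A, -11.3 for C, -17.2 for T, -10.8 for C among sites not at G, 8.15 for a purine before G, 1.31 for C after G, 18.2, -2.48 and 10.0 for G after A, C and T, -0.333 for the mitochondrial share (all percentage points) and 0.000497 for the spread of G density. The neighbour shares among these were read through the libraries of TMZ-treated cells, not through all 18 libraries of the main reading. By that reading a purine came before 87.24% of marked G in naked replicate 1, against 85.49% in the main reading. Their differences are therefore not on the same measure as the main ones. The pair ratios differed by -3.07, -0.200 and -0.0752 for G at the 3 distances, and by -49.2 and -0.128 for sites not at G within 10 bp and at 100 to 1000 bp.

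Leaving out naked replicate 2 or 3 ended all 41 calls among the 53 measures, with adjusted p from 0.0526 to 0.139. The design then allows p no lower than 0.0357, so this says nothing about stability. With either left out 36 measures stood at that lowest p, which the adjustment puts at 0.0526. Without naked replicate 1, where the same lowest p holds, 38 did, and these calls remained at 0.0498 while 3 ended. Over all libraries left out in turn the difference for G was 47.5 to 49.1, for A -11.3 to -10.7, for C -14.9 to -14.1, for T -23.4 to -22.4, for A and C among sites not at G 16.5 to 20.2 and -10.1 to -8.08, for a purine before G 23.3 to 24.7, for C after G 3.60 to 4.31, for G after A 23.7 to 25.8, after C -0.685 to 1.24 and after T 7.79 to 8.64. It was -0.495 to -0.431 for the mitochondrial share and 0.0706 to 0.0810 for the spread of G density. Pair ratios of G differed by -1.58 to -0.938, -0.599 to -0.493 and -0.194 to -0.147 at the 3 distances, and those of sites not at G by -3.79 to -1.69 and -0.302 to -0.262. Contexts past the threshold numbered 13 to 14, G bins 385 to 939, bins of sites not at G 738 to 1180 and bins of G relative to other sites 0 to 1.

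With the replicate number as a replicate block, limma called 718 G bins, 1035 bins of sites not at G and 1 relative bin, and the difference in G share was 48.5. The sign-flip test over 3 pairs cannot go below 0.25.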
